A study of Sus scrofa with 15 samples.

Results

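The splicing factor genes described here are the pig genes whose symbol starts with SRSF, HNRNP, SF3A, SF3B, SNRP, U2AF, PRPF, SRPK or CLK followed by a digit. By this rule 62 of the 22516 genes in the gene table were members, and no measured value was used to choose them. A symbol was known for 15527 genes from a name table and for 89 more from the study's tables, and a gene without one could not be a member. The counts per family below hold only the members found. *SF3B1*, *SNRPB*, *SNRPD3* and *HNRNPC*, for example, were not among them. Splicing removes introns from a pre-mRNA. SR proteins bind exons and recruit the first spliceosome components, hnRNP proteins coat the pre-mRNA and often block splice sites, and small nuclear ribonucleoproteins (snRNPs) recognise the splice sites and build the catalytic machine. A fully grown oocyte is largely silent in transcription, so its splicing factor mRNAs come mostly from a store laid down during growth and are used, adenylated or degraded during maturation.

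RNAseq was carried out on *Sus scrofa* oocytes, with 5 libraries each of GV (germinal vesicle), MII (metaphase II) and ‘damaged’ oocytes, every library being a pool of oocytes. GV oocytes were taken from fresh ovarian follicles without culture, and they too were stripped of cumulus cells. MII and ‘damaged’ oocytes came from cumulus oocyte complexes matured *in vitro* for 44 h and stripped of cumulus cells, and they were split by whether a first polar body was seen (MII) or not (‘damaged’). The cDNA was primed from poly(A) RNA, so a level is that of RNA captured through its tail, and length of the tail and amount of RNA cannot be told apart. MII and ‘damaged’ joined (n = 10) are called MIX.

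Libraries held 6.40 to 23.6 M estimated counts. GV replicate 3, with 6.40 M, was left out of each main fit below because the study removed the GV library with the fewest reads. It lay outside the range of the other 4 GV libraries for 37 of the 62 members. Any library of a group is the highest or lowest for part of the genes, and the same count over all genes is not given. The 37 members are thus not a reason for leaving it out. For 7 of the 15 columns of the gene table the column name disagreed with the library that has the same total, so each group was taken from the transcript file of its library, and whether MII and ‘damaged’ are told apart correctly by these labels was not tested. Each of the 18 oocyte markers found had a mean over 1 TPM (transcript abundance per unit of length, with an equal total per library) in each group, and together they summed to 26502 to 35910 TPM. Of 19 cumulus and granulosa cell markers, 14 were matched to transcripts, of which 3 in GV and 2 in each of MII and ‘damaged’ had a mean over 1 TPM, with sums of 128 to 174 TPM in GV, 293 to 343 in MII and 283 to 340 in ‘damaged’, nearly all of it *VCAN*. The markers not matched, *KRT8*, *KRT18*, *LHCGR*, *AMHR2* and *PTX3*, had 0 counts in each of the 8 columns of the gene table whose names match their library. Without a count there they could not be matched to a transcript, so their level in the other libraries is not given. Of the 14 matched markers, 3 had a higher and 11 a lower mean TPM in MIX than in GV. Only 5 of them passed the filter on low counts, of which *VCAN* and *GATM* rose with TMM factors (log2 fold changes of 2.20 and 2.53) and *VIM*, *CD44* and *STAR* did not pass the test (-1.26, -0.55 and -0.31). The part of such cells in the results below was not tested. The 5 blood cell markers summed to 2.09 to 3.59 TPM in GV and 0.180 to 1.42 TPM in the matured groups.

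All 62 members passed the filter on low counts. Their TPM summed to 7148 to 7682 in the 4 GV libraries, 7513 to 8117 in MII and 7933 to 8579 in ‘damaged’. In TPM the ranges of GV and MII overlapped and that of ‘damaged’ lay above GV. As a share of the counts the members held 0.788 to 0.822% in GV, 0.841 to 0.897% in MII and 0.863 to 0.890% in ‘damaged’. By that measure both matured groups lay above GV. Single members moved in both directions. Compared with GV, 29 members rose and 17 fell in MIX at a false discovery rate (FDR) under 0.01, and 16 did not pass the test. That is 46.8% higher and 27.4% lower, beside 30.3% higher and 37.2% lower among the 13225 genes tested. The median log2 fold change was 0.34 for the members and -0.16 for all genes tested. These directions depend on the scaling: on library sizes without TMM factors the median of all genes was -1.06 and that of the members -0.56, with 13 members higher and 32 lower, beside 12.1% and 60.5% of all genes. Of the 29 members that rose, 13 rose under both scalings and 9 changed sign on library sizes, whereas all 17 that fell also fell on library sizes. In 24 members every MIX library lay above every GV library and in 12 every MIX library lay below, beside 24.3% and 29.4% of all genes tested.

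**Figure D1:**
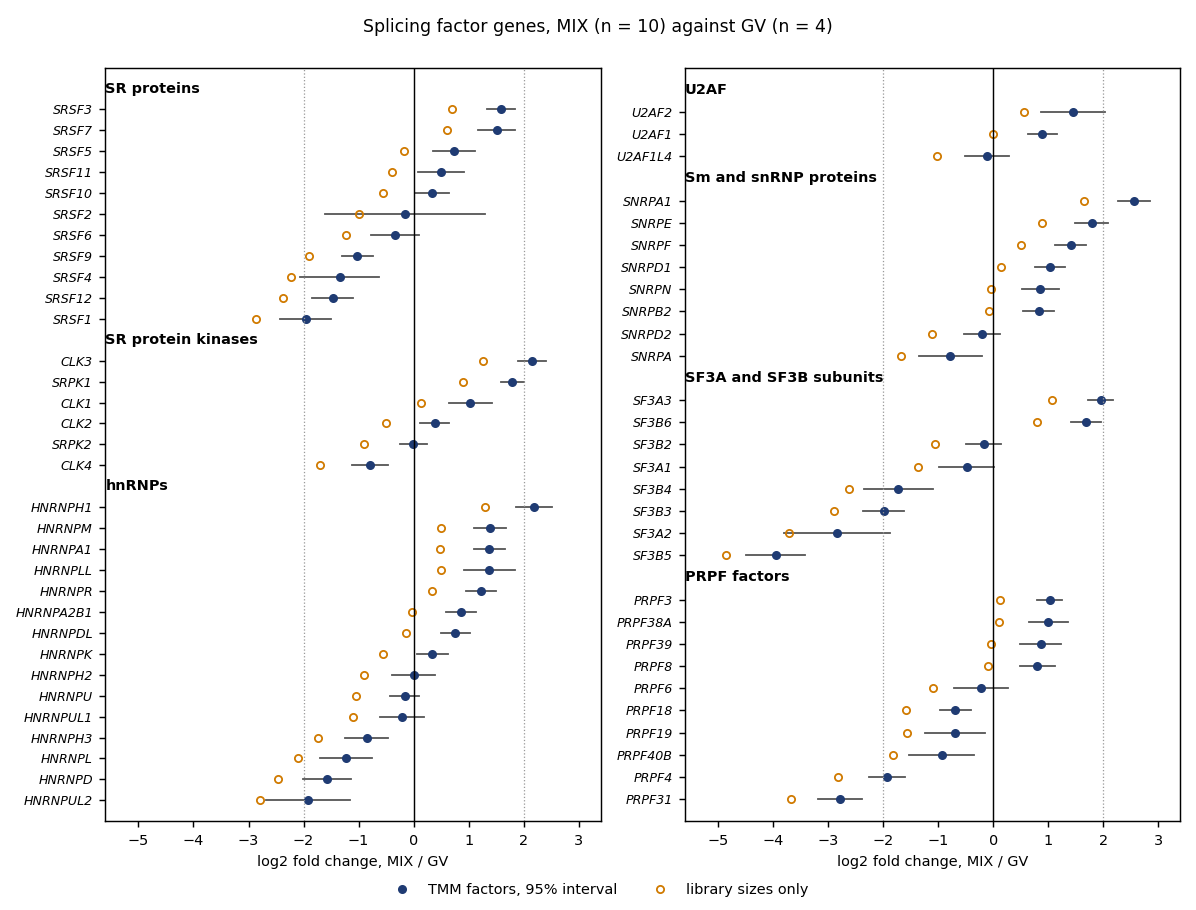
Log2 fold change of 61 of the 62 members between MIX (n = 10) and GV (n = 4), grouped by role, with filled points and 95% intervals for TMM scaling and open circles for library sizes alone; dotted lines mark log2 fold changes of -2 and 2. Open circles lie to the left throughout, and 9 members that rose with TMM factors lie at or below 0 on library sizes.

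Levels are given in CPM, counts scaled to a common library total with TMM factors. DEGs were members past that FDR whose log2 fold change exceeded 2 in size, and they numbered 3 upregulated and 3 downregulated members, beside 4.27% and 16.8% of all genes tested. The upregulated members were *SNRPA1*, *HNRNPH1* and *CLK3*, and the downregulated members were *SF3B5*, *SF3A2* and *PRPF31*. With library sizes alone 0 members were upregulated and 12 were downregulated DEGs, beside 0.348% and 28.7% of all genes tested, *SNRPA1*, *HNRNPH1* and *CLK3* keeping log2 fold changes of 1.65, 1.29 and 1.26. Downregulated DEGs numbered 6 without GV replicate 1 and 5 without GV replicate 4, MII replicate 3 or ‘damaged’ replicate 2, 4 or 5, and *SF3B3*, *SRSF1*, *PRPF4* and *HNRNPUL2* lay just short of the threshold with -1.99, -1.96, -1.93 and -1.92.

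**Figure D2:**
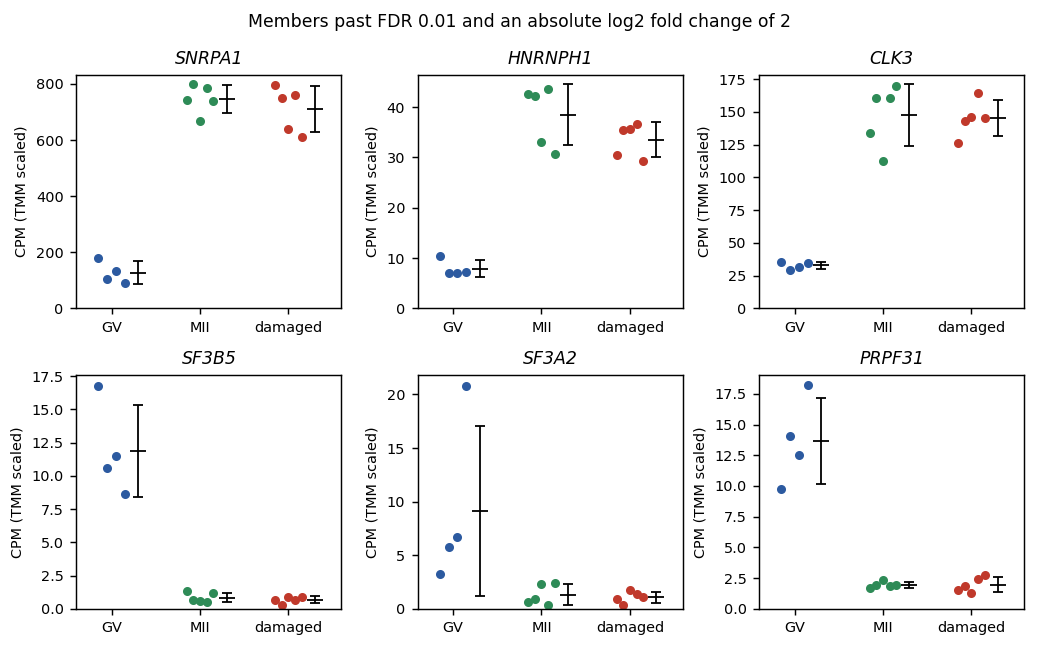
Level in CPM (TMM scaled) of the 6 member DEGs in each library of GV (n = 4), MII (n = 5) and ‘damaged’ (n = 5), with the mean ± SD beside the points. The matured libraries lie above all GV libraries for the upper 3 genes and below them for the lower 3.

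Among the Sm and snRNP proteins, which form the protein core of the snRNPs or bind a single small nuclear RNA, 6 of 8 rose and 0 fell with TMM factors, against 3 and 2 on library sizes. *SNRPA1* (ENSSSCG00000005786, Sscrofa11.1 chromosome 1, 145707393 to 145719287) encodes a protein of the U2 snRNP. Its level was 180.5, 105, 135 and 92.1 CPM in GV replicates 1, 2, 4 and 5. In MII replicates 1 to 5 it was 742, 798, 667, 784 and 741 CPM, and in ‘damaged’ 794, 751, 638, 761 and 610.3 CPM. No matured library came near the GV range, and the log2 fold change of 2.55 ± 0.14 (SE) was the largest rise among the members (FDR 1.23e-12). The Sm ring proteins *SNRPE* and *SNRPF* rose by log2 fold changes of 1.79 ± 0.14 (SE) and 1.41 ± 0.13 (SE). *SNRPE* stood at 193, 152, 153 and 96.6 CPM in GV and 416 to 599 CPM in MIX, and *SNRPF* at 187, 177, 149 and 120.0 CPM in GV and 330.1 to 559.5 CPM in MIX. The 2 groups did not overlap for either gene. *SNRPE* has 2 entries in RefSeq, a pseudogene included, and reads shared between them may enter its counts, which was not tested. *SNRPE*, *SNRPF* and *SNRPA1* had the highest mean TPM of all members, 1825, 916 and 842, over effective lengths of 275, 442 and 779.8 bases. *SNRPD1*, also of the Sm ring, rose by 1.04 on the log2 scale with TMM factors and stood at 0.14 (FDR 0.212) on library sizes. The rises of *SNRPN* (0.86) and *SNRPB2* (0.83), a second U2 protein, turned to -0.04 and -0.07 on library sizes. *SNRPD2* (log2 fold change -0.21, FDR 0.236) and the U1 protein *SNRPA* (-0.78, FDR 0.0139) did not pass the test.

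The SF3A and SF3B subunits, which hold the U2 snRNP at the branch point, went in both directions, with 2 of 8 higher, 4 lower (2 and 6 on library sizes) and a median of -1.10 on the log2 scale. *SF3B5* (ENSSSCG00000062397, chromosome 1, 21231264 to 21232014), a small SF3B subunit, had 16.8, 10.6, 11.5 and 8.67 CPM in GV. The level was 1.31, 0.676, 0.61, 0.472 and 1.17 CPM in MII and 0.677, 0.301, 0.901, 0.697 and 0.862 CPM in ‘damaged’. The highest matured library lay below the lowest GV library, and the log2 fold change of -3.95 ± 0.26 (SE) was the largest fall among the members (FDR 1.59e-11). Its effective length was only 62.1 bases, which makes its TPM of 133 sensitive to a few reads. *SF3A2* (ENSSSCG00000061881, chromosome 2, 76404882 to 76414901) had 3.27, 5.73, 6.72 and 20.8 CPM in GV, the widest spread of any member among GV libraries (SD 1.05 on the log2 scale). In MII it had 0.618, 0.912, 2.31, 0.318 and 2.43 CPM and in ‘damaged’ 0.914, 0.342, 1.73, 1.35 and 1.1 CPM. The groups did not overlap, with a log2 fold change of -2.84 ± 0.46 (SE) (FDR 1.15e-05). *SF3A3*, the partner of *SF3A2* in the SF3A complex, rose instead, from 276, 201, 221 and 191 CPM in GV to a lowest of 748, a median of 863 and a highest of 989 CPM in MIX (log2 fold change 1.95 ± 0.11 (SE)). *SF3B6*, whose protein contacts the branch point, also rose, from 149.6, 114, 128 and 84.6 CPM to a lowest of 316, a median of 391 and a highest of 419.8 CPM (1.69 ± 0.13 (SE)). *SF3B3* and *SF3B4* fell by 1.99 and 1.73 on the log2 scale, both without overlap between the groups. *SF3B2* (-0.18, FDR 0.31) and *SF3A1* (-0.48, FDR 0.0769) did not pass the test.

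Of the 11 PRPF factors, most of which belong to the U4/U6.U5 tri-snRNP or act on it, 5 rose and 4 fell with TMM factors, and 1 rose and 6 fell on library sizes. *PRPF31* (ENSSSCG00000003263, chromosome 6, 55995087 to 56011507) encodes a U4/U6 protein needed for tri-snRNP assembly. It had 9.77, 14, 12.5 and 18.2 CPM in GV, 1.65, 1.91, 2.36, 1.85 and 1.93 CPM in MII and 1.53, 1.84, 1.3, 2.41 and 2.79 CPM in ‘damaged’. Every matured library lay well below the GV libraries (log2 fold change -2.78 ± 0.19 (SE), FDR 4.30e-11). *PRPF4*, which sits with *PRPF3* on the U4/U6 snRNP, fell from 98.4, 84.2, 99.6 and 93.1 CPM in GV to a lowest of 18.2, a median of 23.6 and a highest of 40.9 CPM in MIX (-1.93 ± 0.16 (SE)). Its partner *PRPF3* was higher with TMM factors, 148, 109, 126 and 123 CPM in GV and 228 to 287 CPM in MIX (1.02 ± 0.11 (SE)), but on library sizes its log2 fold change was 0.13 with an FDR of 0.2. *PRPF38A* rose by 1.00 with TMM factors (0.10 on library sizes, FDR 0.53). *PRPF8*, the core of the U5 snRNP, and *PRPF39* rose by 0.80 and 0.86 with TMM factors and stood at -0.09 and -0.04 on library sizes. *PRPF18* and *PRPF40B* fell by 0.69 and 0.94 on the log2 scale, with overlapping libraries. The ubiquitin ligase *PRPF19* (-0.69, FDR 0.0217) and the tri-snRNP bridge *PRPF6* (-0.23, FDR 0.384) did not pass the test.

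Both U2AF subunits were higher with TMM factors. *U2AF2*, which binds the polypyrimidine tract, had 6.58, 9.62, 10.9 and 19.6 CPM in GV and a lowest of 18.5, a median of 27.7 and a highest of 56.5 CPM in MIX, with overlapping libraries (1.45 ± 0.28 (SE)). *U2AF1*, which reads the AG at the 3′ splice site, had 89.6, 95.7, 97.8 and 107 CPM in GV and 132 to 218 CPM in MIX (0.89 ± 0.13 (SE)). On library sizes neither passed: the log2 fold change of *U2AF2* was 0.57 (FDR 0.114) and that of *U2AF1* was -0.0002. The paralog *U2AF1L4* had a log2 fold change of -0.12 (FDR 0.584).

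Of the 11 SR proteins, 3 rose and 4 fell, and on library sizes 2 rose and 6 fell. *SRSF3* had 83.3, 67.6, 75.6 and 50.9 CPM in GV and a lowest of 176, a median of 208 and a highest of 225 CPM in MIX (1.59 ± 0.12 (SE)). *SRSF7*, which with *SRSF3* also takes part in mRNA export, had 79.2, 37.6, 52.4 and 34.9 CPM in GV and a lowest of 112, a median of 142 and a highest of 158 CPM in MIX (1.51 ± 0.16 (SE)). Both were higher in every matured library than in any GV library, and both also rose on library sizes (0.70 and 0.61). *SRSF1*, the classic SR protein of constitutive and alternative splicing, went the other way, from 25.8, 38.9, 25.1 and 37.7 CPM in GV to 6.38, 6.23, 5.1, 9.36 and 5.93 CPM in MII and 5.81, 12.5, 6.95, 11.2 and 15.3 CPM in ‘damaged’. The log2 fold change in MIX was -1.96 ± 0.22 (SE) (FDR 7.43e-08), and GV replicate 3, left out of the fit, had 65.5 CPM. *SRSF12* fell from 15.8, 10.5, 11.6 and 11.5 CPM to a lowest of 2.52, a median of 4.53 and a highest of 5.49 CPM (-1.47 ± 0.18 (SE)). *SRSF4* and *SRSF9* fell by 1.34 and 1.02 on the log2 scale. *SRSF5* rose by 0.74 with TMM factors and stood at -0.17 on library sizes. *SRSF2*, *SRSF6*, *SRSF10* and *SRSF11* did not pass the test, with log2 fold changes of -0.16, -0.34, 0.34 and 0.50. *SRSF2* was near the limit of detection, at 0.357 to 1.79 CPM in GV and 0 to 1.97 CPM in MIX, so a change was not detectable at this depth.

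The SR protein kinases phosphorylate the serine and arginine-rich domains of SR proteins, SRPK in the cytoplasm ahead of nuclear import and CLK in the nucleus. With TMM factors 4 of the 6 rose and 1 fell, and on library sizes 2 rose and 3 fell. *CLK3* (ENSSSCG00000001904, chromosome 7, 58895407 to 58909616) had 35.8, 29.5, 31.6 and 34.7 CPM in GV, 134, 161, 113, 161 and 170.0 CPM in MII and 126, 143, 146, 165 and 145 CPM in ‘damaged’. The groups were far apart (log2 fold change 2.15 ± 0.12 (SE), FDR 2.87e-12). *SRPK1* had 266, 257, 212 and 215 CPM in GV and a lowest of 728, a median of 843 and a highest of 882 CPM in MIX (1.79 ± 0.10 (SE)). Its paralog *SRPK2* had 104, 120.2, 116 and 122 CPM in GV and a lowest of 91.6, a median of 114 and a highest of 139 CPM in MIX, a log2 fold change of -0.01 with a 95% interval of -0.25 to 0.23, but fell on library sizes (-0.90). *CLK1* rose by 1.03 with TMM factors (0.13 on library sizes, FDR 0.502). *CLK2* rose by 0.38 with TMM factors and fell to -0.51 (FDR 0.00211) on library sizes. *CLK4* fell from 99.3, 54.2, 68.4 and 47 CPM in GV to a lowest of 31.7, a median of 37 and a highest of 43.1 CPM in MIX (-0.80 ± 0.15 (SE)). With all 5 GV libraries its log2 fold change was -0.58 and its FDR 0.013, which did not pass the test.

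Of the 15 hnRNPs, 7 rose and 4 fell with TMM factors, and 3 rose and 8 fell on library sizes. *HNRNPH1* (ENSSSCG00000014022, chromosome 2, 78961456 to 78971799), which binds G-rich tracts, had 10.5, 6.97, 7.06 and 7.28 CPM in GV. In MII it had 42.6, 42.3, 33.1, 43.7 and 30.7 CPM and in ‘damaged’ 30.5, 35.6, 35.7, 36.7 and 29.3 CPM. The lowest matured library lay above the highest GV library (log2 fold change 2.19 ± 0.16 (SE), FDR 9.12e-11). Its close relatives differed in their values, as *HNRNPH2* did not pass the test (FDR 0.996) and *HNRNPH3* fell, with a log2 fold change of -0.85 ± 0.19 (SE), and reads shared between these paralogs may have been divided among them. *HNRNPM* had 26.4, 32.6, 33.3 and 36.8 CPM in GV and a lowest of 64.2, a median of 86.9 and a highest of 102 CPM in MIX (1.39 ± 0.14 (SE)). *HNRNPA1*, *HNRNPLL* and *HNRNPR* rose by 1.37, 1.37 and 1.23 on the log2 scale with TMM factors, and on library sizes by 0.48, with 0.49 (FDR 0.0557) and 0.33 (FDR 0.0495) for the other two. *HNRNPA2B1* and *HNRNPDL* rose by 0.87 and 0.76 with TMM factors and stood at -0.03 and -0.13 on library sizes. *HNRNPUL2* fell from 2.98, 7.93, 5.47 and 8.84 CPM in GV to a lowest of 0.489, a median of 1.57 and a highest of 5.49 CPM in MIX, with overlapping libraries (-1.92 ± 0.36 (SE)). *HNRNPD*, which binds AU-rich elements and takes part in mRNA decay, fell from 54.9, 53, 41.1 and 66 CPM to a lowest of 9.95, a median of 18.2 and a highest of 33 CPM without overlap (-1.57 ± 0.21 (SE)), and *HNRNPL* fell by 1.23 on the log2 scale. *HNRNPK*, *HNRNPU* and *HNRNPUL1* did not pass the test (0.33, -0.16 and -0.21).

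**Figure D3:**
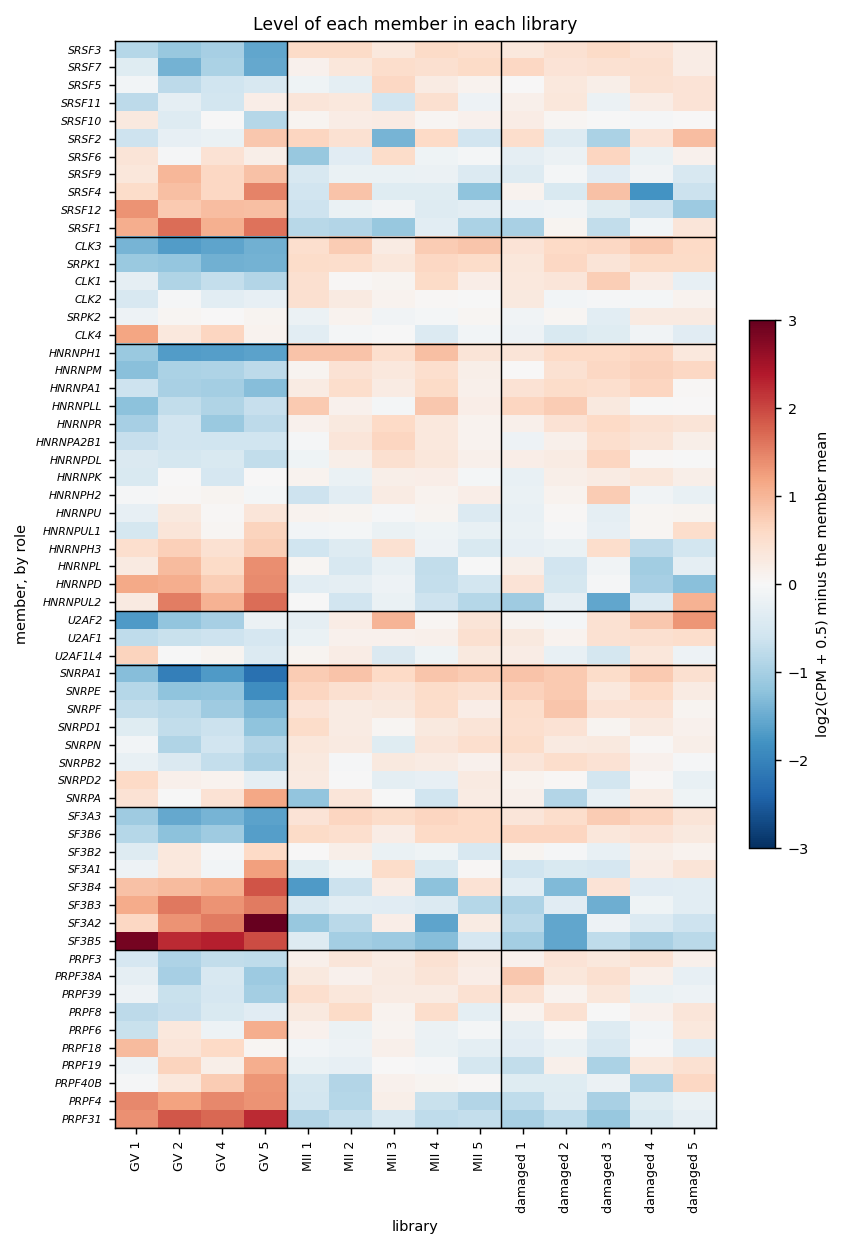
Level of 61 of the 62 members (rows, by role and ordered by fold change) in the 14 libraries tested (columns), as log2(CPM + 0.5) with TMM scaling minus the mean of the member, red for higher and blue for lower. Columns of MII and ‘damaged’ look alike, while rows such as *SNRPA1* and *SF3B5* change colour between GV and the matured libraries.

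The members that rose and those that fell had like effective lengths, with medians of 2062 bases for the 29 that rose and 2072 for the 17 that fell. Their levels in GV differed more, with a median of 79.5 CPM among those that rose (3.02 to 628) and 27.9 CPM among those that fell (5.65 to 538). The GV level enters the fold change itself, so this is a description only. The spread between libraries was a median SD of 0.34 on the log2 scale in GV, 0.22 in MII and 0.26 in ‘damaged’.

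Other genes of the pathway, taken from 5 lists that hold no member, also moved in both directions. Of 171 such genes tested, 65 rose (38.0%) and 58 fell (33.9%), beside 30.3% and 37.2% of all genes tested. Their median was 0.12 on the log2 scale. On library sizes 33 rose and 102 fell, beside 12.1% and 60.5% of all genes tested. Among other snRNP and tri-snRNP proteins 11 of 33 rose and 11 fell, with *SNRNP40*, a U5 protein, highest at 2.33 and *LSM6*, of the ring on U6, lowest at -3.31. Of the catalytic step proteins and RNA helicases 17 of 36 rose and 15 fell, from -3.91 for *XAB2* to 2.20 for *PPIL4*. Among other regulators of splice site choice 28 of 73 rose and 23 fell, with *PTBP3*, a polypyrimidine tract binding protein, at 2.22 and *PUF60*, a partner of U2AF, at -4.26. In the exon junction complex list 5 of 14 rose and 5 fell, with *RBM8A* at 1.82 and the export adaptor *ALYREF* at -2.20. For snRNP assembly and import 4 of 15 rose and 4 fell, with *PHAX*, the export adaptor of small nuclear RNA, at 1.58 and *GEMIN7*, of the SMN complex, at -3.80. The 5 named rises were 1.43, 1.30, 1.32, 0.92 and 0.68 on library sizes, in the same order. By list, 7 rose and 22 fell on library sizes among snRNP and tri-snRNP proteins, 8 and 19 in the catalytic list, 14 and 43 among regulators, 3 and 9 in the exon junction complex list and 1 and 9 in snRNP assembly.

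Treated separately, MII and ‘damaged’ gave similar counts against the same GV libraries. In MII 29 members rose and 16 fell, beside 28.2% and 34.2% of all genes, and in ‘damaged’ 28 rose and 16 fell, beside 28.0% and 33.4%. *SNRPA1* was 2.59 in MII and 2.52 in ‘damaged’ on the log2 scale, *SF3B5* was -3.85 and -4.06, and *SRSF1* was -2.25 and -1.68. Both comparisons share their GV libraries. On library sizes 12 members rose and 31 fell in MII, beside 10.9% and 57.6% of all genes, and 13 rose and 31 fell in ‘damaged’, beside 11.2% and 56.0%.

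Compared directly, 0 of the 62 members differed between MII and ‘damaged’ oocytes by limma-voom at an FDR under 0.01, as for all genes tested (0.0%), and the lowest FDR of a member was 0.9999. At an unadjusted p under 0.05 there was 1 member, beside 2.78% of all genes tested. That member was *SRSF1*, with 6.6 ± 1.62 CPM in MII and 10.4 ± 3.93 CPM in ‘damaged’ (SD, n = 5 each). Its log2 fold change was -0.57 (95% interval -1.06 to -0.08), with an FDR of 0.9999 by limma-voom over all genes. The libraries of both groups overlapped. *U2AF1* followed with -0.23 (interval -0.51 to 0.04) and *PRPF39* with 0.25 (interval -0.14 to 0.64). For 59 of 62 members the 95% interval lay within a log2 fold change of 1 in either direction. The widest interval was that of *SRSF2*, -2.14 to 1.07, so a difference of that size could not be seen there.

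**Figure D4:**
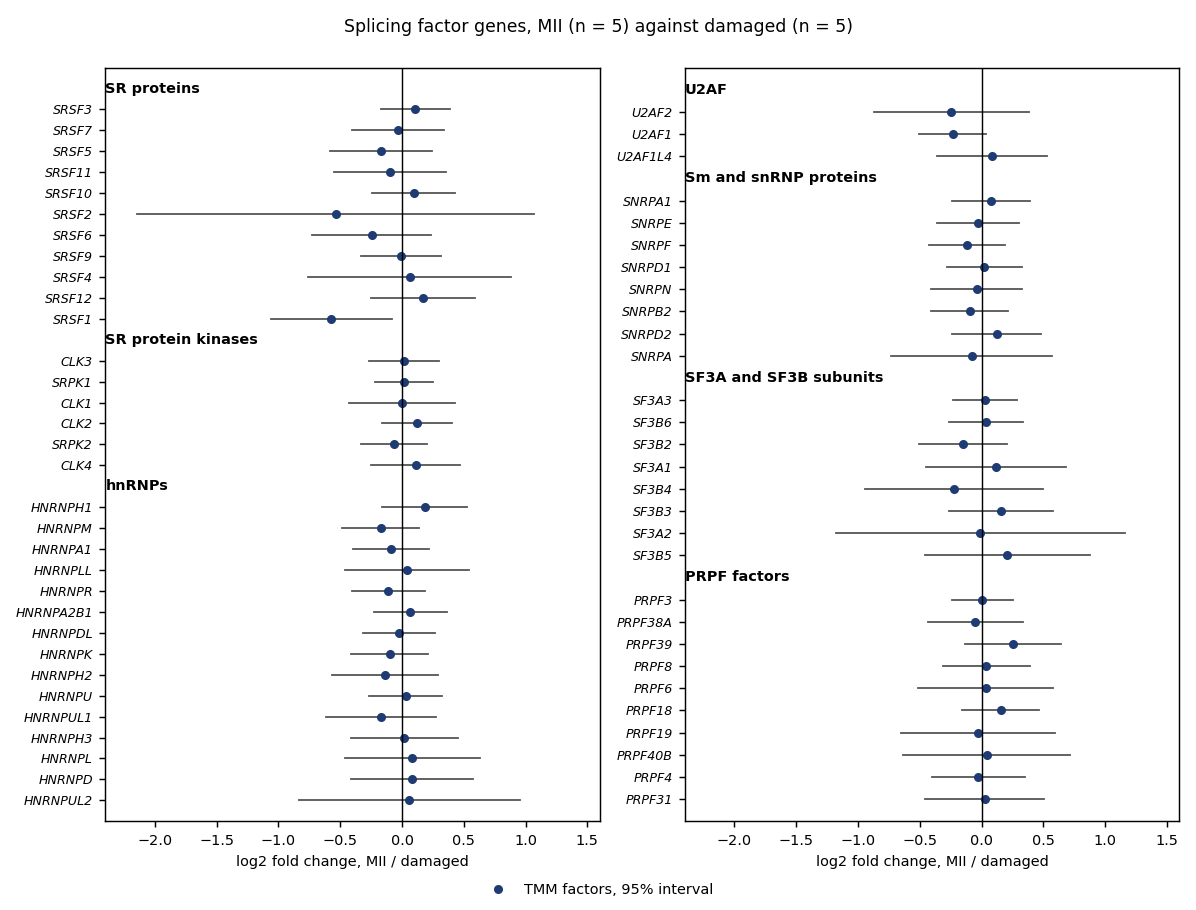
Log2 fold change of 61 of the 62 members between MII (n = 5) and ‘damaged’ (n = 5) with its 95% interval, grouped by role. Only the interval of *SRSF1* leaves out 0, and 58 of the 61 intervals lie between -1 and 1.

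Isoform usage was then compared, that is, the share of a gene's TPM that each of its transcripts holds. Of the 62 members 42 had more than one transcript, and 91 isoforms of 37 members passed the filters on gene TPM and isoform fraction. Of these, 42 isoforms (46.2%) of 25 genes (67.6%) had changed usage in MIX at an FDR under 0.01 and a difference in isoform fraction (dIF) over 10 percentage points, beside 31.6% of the isoforms and 43.5% of the genes tested. The share rose for 25 isoforms and fell for 17. In 10 of the 37 members the transcript with the highest mean share was another one in MIX than in GV. This compares group means without a test, and the same count over all genes is not given. In 6 of the 25 genes, *HNRNPK*, *HNRNPU*, *HNRNPUL1*, *PRPF6*, *SRPK2* and *SRSF6*, usage changed while the gene level did not pass the test with TMM factors, but on library sizes the level of all 6 fell, with log2 fold changes of -1.24 (*SRSF6*) to -0.55 (*HNRNPK*). The level of *SRSF6* also fell on kallisto counts summed per gene (-0.77, FDR 0.0008 by limma-voom). Shares are estimates from single-end reads divided among overlapping transcripts, so they carry error beyond counting.

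**Figure D5:**
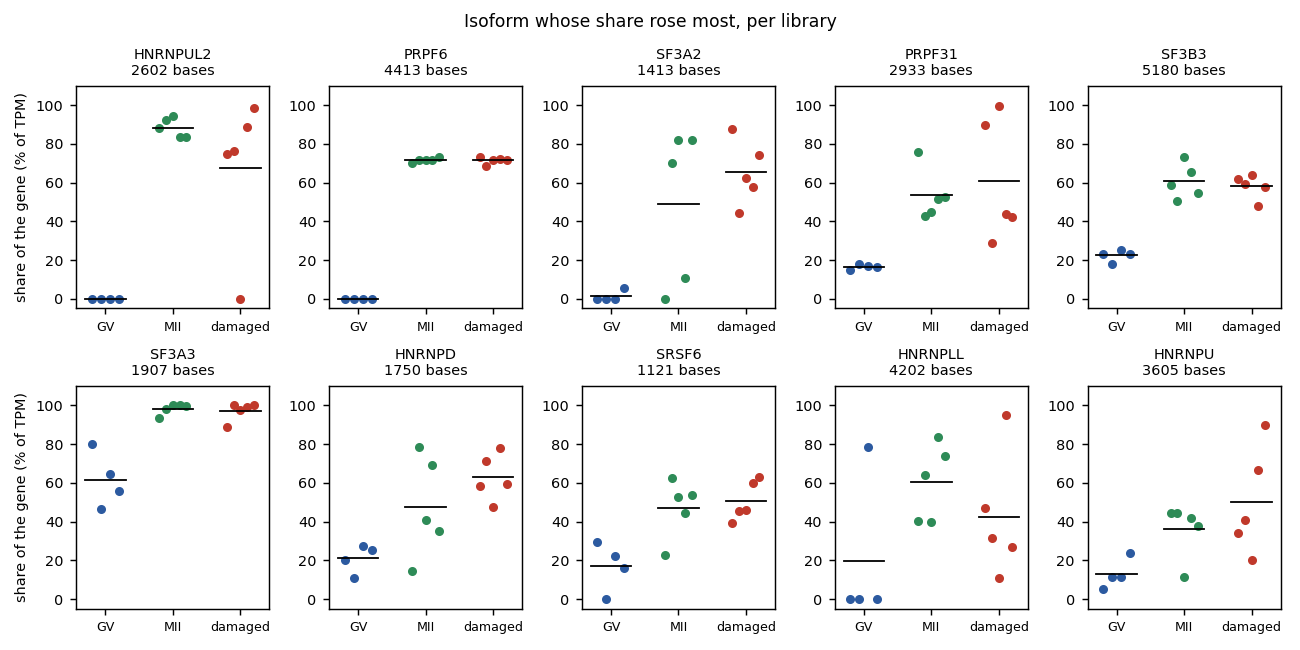
Share of the gene's TPM, in percent, of the called isoform with the largest rise in each of 10 member genes, per library of GV (n = 4), MII (n = 5) and ‘damaged’ (n = 5), with lines at the means and transcript lengths in the titles. The *PRPF6* isoform is at 0 in GV and at 68.6 to 73.4% in the matured libraries, while *HNRNPLL*, *HNRNPD* and *HNRNPU* scatter widely.

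The most even change was that of *PRPF6*. Its transcript of 4413 bases held 0% in each of the 4 GV libraries. In MII it held 69.9, 71.6, 71.5, 71.9 and 73.4%, and in ‘damaged’ 72.9, 68.6, 71.5, 72.4 and 71.8% (dIF 71.6 points, FDR 9.30e-169). All 10 matured libraries lay within a few points of each other and none overlapped GV. The transcript of 4416 bases, longer by 3 bases, held the whole TPM of the gene in GV replicates 1, 2 and 4 and 69.1% in GV replicate 5, and it fell to 26.6 to 31.4% in MIX. *PRPF6* had 99 to 411 estimated counts per GV library and 91 to 159 per MIX library. How many of these reads told apart 2 transcripts that differ in length by 3 bases was not counted. The part that the division of reads has in the evenness of the shares was not tested.

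The largest dIF was in *HNRNPUL2*. The transcript of 2602 bases held 0% in each GV library used, 88.2, 92.3, 94.4, 83.3 and 83.3% in MII and 75, 76.4, 0, 88.9 and 98.3% in ‘damaged’ (dIF 78 points, FDR 1.31e-11), and that of 5001 bases held the rest. ‘Damaged’ replicate 3 was at 0% like the GV libraries, and the gene had only 10 to 57 estimated counts per MIX library.

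Usage also changed in subunits whose level fell. The *SF3A2* transcript of 1413 bases held 0, 0, 0 and 5.61% in GV, 0, 70.3, 82.2, 10.9 and 81.7% in MII and 87.8, 44.1, 62.5, 57.6 and 74.2% in ‘damaged’ (dIF 55.7 points). MII replicate 1 lay within the GV range, and the gene had 4 to 30 estimated counts per MIX library, too few for a firm share. The *PRPF31* transcript of 2933 bases rose from 14.9 to 18.1% in GV to 28.8 to 99.5% in MIX at 21 to 42 estimated counts per library. *SF3B3* rested on more counts, 161 to 393 per MIX library, and its transcript of 5180 bases rose from 23.2, 18.1, 25.4 and 23.1% in GV to 48 to 73.3% in MIX without overlap (dIF 36.9 points, FDR 3.66e-18).

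In *SF3A3*, whose level rose, the transcript of 1907 bases went from 80.2, 46.4, 64.7 and 55.6% in GV to 89.0% or more in every MIX library (dIF 36 points, FDR 0.00222), without overlap. This call was lost without GV replicate 2, 4 or 5, with FDRs of 0.0134, 0.0102 and 0.012. The *SRSF6* transcript of 1121 bases rose from 29.4, 0, 22.4 and 15.9% in GV to 22.6 to 63.1% in MIX, with overlap, and its call was lost without GV replicate 5 (FDR 0.0136).

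The remaining 3 changes were less even. The *HNRNPD* transcript of 1750 bases held 21 ± 7.31% in GV (SD, n = 4) and 14.4 to 78.3% in MIX, and its call was lost without GV replicate 1 or 2 (FDR 0.0125 and 0.0273). The *HNRNPLL* transcript of 4202 bases held 0, 0, 78.7 and 0% in GV and 11 to 95.1% in MIX, at 40 to 80 estimated counts of the gene per GV library, and its call was lost without GV replicate 1, 2 or 5 (FDR 0.0778, 0.0757 and 0.078) and with scaledTPM counts, which are TPM scaled to the library total (FDR 0.0176). The *HNRNPU* transcript of 3605 bases held 5.33, 11.5, 11.6 and 23.8% in GV and 11.3 to 89.7% in MIX (FDR 0.00899). That call was lost when any 1 of GV replicates 1, 2 and 4, MII replicates 1, 2, 4 and 5 or ‘damaged’ replicates 1, 2 and 4 was left out, with FDRs of 0.0112 to 0.0528, with scaledTPM counts (FDR 0.0114) and by limma diffSplice (FDR 0.0666).

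Among the 25 genes with changed usage, the transcript that gained most was the longer one in 10 when set against the transcript that lost most. The same count over all genes is not given. Between MII and ‘damaged’ oocytes 0 of 82 isoforms in 33 members had changed usage by the DEXSeq model, beside 1 of 11486 isoforms (0.00871%) and 1 of 4524 genes tested (0.0221%). At an unadjusted p under 0.05 there were 2 member isoforms, beside 4.68% of all isoforms tested. The smallest p was that of the *HNRNPLL* transcript of 4100 bases, with 7.56 ± 16.9% in MII and 40.0 ± 30.3% in ‘damaged’ (SD, n = 5 each; DEXSeq model, FDR 0.523). The *HNRNPD* transcript of 1668 bases held 34.4 ± 25.8% and 9.43 ± 12.4% (FDR 0.909), and a second *HNRNPLL* transcript, of 2127 bases, 7.02 ± 4.33% and 2.16 ± 2.29%. The libraries of both groups overlapped for all 3.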

How the data were processed

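Pig RNAseq libraries of GV, MII and ‘damaged’ oocytes were used. The authors made estimated counts and TPM per transcript with kallisto 0.43 on Sscrofa11.1 cDNA, and deposited expected counts per gene (tximport, lengthScaledTPM). Of the gene table's columns, 8 had the total of the library they name and 7 were not used. Genes were assigned their transcripts by matching transcript sums to the 8 columns (18911 of 18954 genes with a count), and gene counts of all 15 libraries were recomputed from the transcript files. In those 8 columns the recomputed counts differed from the deposited ones by at most 2.56e-05%, low counts left aside. The 7 other columns were not compared. Symbols came from the gene name table (15527 genes) and the study's tables (89), and positions from RefSeq on Sscrofa11.1 by symbol.

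Counts were tested with limma 3.58.1 (voom, eBayes) in R 4.3.3 after filterByExpr and TMM factors of edgeR 4.0.16. TMM factors were used because the GV means in the study's tables match that scaling. CPM are TMM scaled. All p-values were adjusted by the method of Benjamini and Hochberg across the genes tested. Isoform usage was tested by the DEXSeq model as a likelihood ratio test in DESeq2 1.42.0 on estimated counts, rounded to whole numbers, for genes over 1 TPM and isoform fractions over 0.05. In a gene with 2 isoforms tested, both give the same test. Per the study's methods the libraries of a group came from biologically separate collections of oocytes, each of which gave all groups. Within GV, MII or ‘damaged’ the spread is thus that between collections. MIX joins MII and ‘damaged’ libraries of the same collections, and the main fits took its 10 libraries as independent. The p-values of MIX against GV therefore do not measure the spread between collections alone, and the main fits left out the pairing of groups. Whether the replicate numbers of the labels mark these collections is not given in the sources used here. No 2 libraries of a group differed by as little as counting error (chi-square per gene 15.2 to 213 over 30 pairs). The matching of transcripts and both tests were checked on simulated data. For the tests a minority of genes changed, with as many rises as falls and a fixed spread. Reads were not divided among overlapping transcripts there. The check thus does not bear on the choice of scaling or on that division.

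Genes named with full values were the member DEGs, the 2 largest rises and falls of each role list, the 3 members of highest mean TPM, the 10 genes of largest dIF, the smallest p-values between MII and ‘damaged’, and the extremes of each pathway list; the other members are given to account for the rest. Of the 62 members, 1 counts in the totals but is not reported here, in the text or the figures. The members, lists and tests were chosen with earlier results of these data known. Alternatives were other scalings, filters, tools and left-out libraries.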

Additional observations from a re-analysis of the deposited data

Results flagged for a closer look

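Of 117 groups of libraries checked for a library far from the others, 10 had one. Chance flags about 1 in 20 only for independent values without ties. Several of the shares below are tied at 0, so the count cannot be set against that rate. For levels, GV replicate 1 stood highest for *HNRNPH1* (10.5 CPM, next 7.28). MII replicate 3 stood highest for *PRPF4* (40.9 CPM, next 24.6), and ‘damaged’ replicate 5 for *HNRNPUL2* (5.49 CPM, next 1.89). For isoform shares, ‘damaged’ replicate 3 stood lowest for the *HNRNPUL2* transcript of 2602 bases (0%, next 75.0%), GV replicate 5 highest for the *SF3A2* transcript of 1413 bases (5.61%, others 0%), and MII replicate 1 highest for the *PRPF31* transcript of 2933 bases (75.7%, next 52.5%). The *SF3A3* transcript of 1907 bases was lowest in MII replicate 1 (93.5%, next 98.4%) and in ‘damaged’ replicate 1 (89.0%, next 97.8%). GV replicate 4 stood highest for the *HNRNPLL* transcript of 4202 bases (78.7%, others 0%), and MII replicate 3 lowest for the *HNRNPU* transcript of 3605 bases (11.3%, next 37.5%).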

How the results depend on the processing

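Scaling had the widest effect. On library sizes without factors the members higher and lower than GV numbered 13 and 32 in MIX (29 and 17 with TMM factors), 12 and 31 in MII (29 and 16) and 13 and 31 in ‘damaged’ (28 and 16), the member DEGs 0 and 12 (3 and 3), and the median log2 fold change of the members turned from 0.34 to -0.56. Of the 29 members that rose, 9 changed sign there, *U2AF1* (-0.0002) and *PRPF39* (-0.0404) among them. A filter of 10 CPM in 4 libraries gave 1 upregulated and 6 downregulated member DEGs, beside 181 and 1178 of the 7465 genes then tested. With all 5 GV libraries 6 members were downregulated DEGs, beside 2212 of 13108 genes tested. The median was then 0.28 for the members and -0.16 for all genes tested. Leaving out 1 library gave 3 to 4 upregulated and 3 to 6 downregulated DEGs, with 6 without GV replicate 1 and 5 without GV replicate 4, MII replicate 3 or ‘damaged’ replicate 2, 4 or 5. Over all genes tested these DEGs numbered 469 to 738 and 2189 to 2384. Leaving out 1 library also gave 28 to 29 higher and 15 to 18 lower members in MIX, beside 3718 to 4071 and 4678 to 5046 of all genes tested. The median of the members was 0.30 to 0.37. Member isoforms with changed usage numbered 28 (without GV replicate 5) to 44, against 42, beside 4257 to 5030 of all isoforms tested. The level of *PRPF6*, which did not pass the test, ranged from -0.49 to 0.12 when 1 library was left out, and was above 0 without GV replicate 5. The cause was not tested.

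Same-numbered libraries correlated by -0.102 to 0.320 over 13 pairs, with 3 over 0.1. As not every pair was over 0.1, and no source says that a number marks a collection, the fits had no block, although 9 of 14 libraries correlated best with their own number, a hint of pairing from the data. With the replicate block 30 members were higher and 19 lower in MIX, beside 4087 and 4967 of 13225 genes tested. Of these members 3 and 3 were DEGs, beside 571 and 2207 of all genes. The members numbered 28 and 18 in MII, beside 3807 and 4642 genes, and 29 and 17 in ‘damaged’, beside 3816 and 4489. Usage changed for 43 member isoforms, beside 4775 of 15783 isoforms tested. Among the genes and isoforms named, the block changed the call of *SRSF6* alone (log2 fold change -0.50, FDR 0.00777 by limma-voom). The counts between MII and ‘damaged’ were 0 under every alternative run. GV replicate 3 had the fewest counts and *SRSF2*, *SF3A2* and *SF3B5* few counts in MIX, which limits what can be said of them.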
